A study of Homo sapiens with 6 samples.

Results

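DNER, DTX3 and genes of the core Notch pathway were followed in JHH-4, an established human hepatocellular carcinoma cell line with epithelial-like cells. The genes were DNER, DTX3, NOTCH1, NOTCH2, NOTCH3, JAG1, JAG2, HES1, HEY1 and RBPJ, found by gene name among 14034 tested genes. Of these 10 genes 9 were in the table, and NOTCH3 was not analysed here. DNER and DTX3 were chosen by their measured rise between the groups compared below, so their differences are given as a description with no test; the other genes were chosen by name for their place in the pathway. The miR-885-5p group had 3 libraries of JHH-4 cells that overexpressed hsa-miR-885-5p from a plasmid carrying the primary microRNA. The Control group had 3 libraries of JHH-4 cells labelled WT, and what those cells were given is not stated in the sources used here. Effects of plasmid delivery and of the microRNA therefore cannot be told apart. The submitters describe the replicates as technical, and p-values then measure only the spread between these libraries.

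Notch receptors are single-pass membrane proteins that bind ligands of the Jagged and Delta families on neighbouring cells. Ligand pulling opens the receptor to ADAM proteases and then to gamma-secretase, which frees an intracellular domain that enters the nucleus, joins the DNA-binding protein RBPJ and a Mastermind coactivator, and turns on genes such as those of the HES and HEY repressors. In the liver the pathway is known for its part in bile duct formation, where JAG1 and NOTCH2 are required. DNER is a membrane protein with EGF-like repeats that was proposed as a Notch ligand in the mouse cerebellum, and it lacks the DSL domain of Jagged and Delta ligands. DTX3 belongs to the Deltex family of ubiquitin ligases, named after the Notch regulator deltex of the fruit fly.

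The libraries held 46382314 to 56409821 counts each. Levels below are counts scaled to library size by TMM and shown as CPM, the standard depth-normalised read count, and differences are given as log2 fold changes, positive where miR-885-5p was higher, with their standard error (SE) from edgeR's quasi-likelihood fit over all genes; a gene was called at an adjusted p under 0.05. Of all tested genes 26.3% were called higher and 26.5% lower, so a call in either direction was common. Groups that did not overlap in CPM were also common, with 60.5% of all tested genes. Among the genes followed here 6 of 9 had no overlap, near that share. For the epithelial label the keratin genes KRT8, KRT18 and KRT19 were measured, with a summed level of 2811 to 2907 CPM in miR-885-5p libraries and 3342 to 3440 CPM in Control libraries, while EPCAM and CDH1 were not analysed here. Of 9 hepatocyte markers SERPINA1 and FGB were measured, with a summed level of 12.01 to 13.3 CPM in miR-885-5p libraries and 27.7 to 30.7 CPM in Control libraries, and ALB, APOB and HNF4A were not analysed here. FGB, a fibrinogen gene, averaged 4.49 CPM with miR-885-5p and 20.7 CPM in Control and fell by 2.204 on the log2 scale, while SERPINA1 averaged 8.41 CPM with miR-885-5p and 8.86 CPM in Control (adjusted p = 0.636).

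The sequence of the overexpressed microRNA is shown with its seed, bases 2 to 8, in capitals, beside the pathway sites that pair with the whole seed, also in capitals. Sequences are 5′ to 3′; the microRNA is from RefSeq (GRCh38.p14, chromosome 3, minus strand) and the sites are from GENCODE 29 transcripts (GRCh38), each with 10 bases on either side.
hsa-miR-885-5p: uCCAUUACacuacccugccucu
HEY2, plus strand, chr6:125760962-125760968: ctagtgctatGTAATGGggttgtggtt
L3MBTL3, plus strand, chr6:130140055-130140061: attatttatgGTAATGGggggcagagt
HDAC2, minus strand, chr6:113934799-113934806: agtgttatatGTAATGGActtaggtata
The longest annotated 3′ UTR of each of the 9 genes held 0 matches of 7 or more bases to the seed, on the transcript strand. The types searched were the 8mer GTAATGGA, the 7mer-m8 GTAATGG and the 7mer-A1 TAATGGA, each counted once where they overlap. Of 12304 tested genes with a 3′ UTR, 17.2% held at least 1 of them. The shorter match TAATGG occurred 2 times each in the UTRs of JAG1, NOTCH2 and RBPJ and 0 times in those of DNER, DTX3, JAG2, NOTCH1, HES1 and HEY1. Of the 12304 genes 30.4% held it. A match is a description of the letters and not a measured site.

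DNER was close to 10-fold higher with miR-885-5p. It had 11.8, 10.1 and 10.6 CPM in miR-885-5p libraries 1 to 3, against 0.883, 1.21 and 1.10 CPM in Control libraries 1 to 3. All miR-885-5p libraries lay far above all Control libraries, and the spread inside each group was small beside the gap. The raw counts behind these levels were 556, 580 and 553 in miR-885-5p libraries and 42, 57 and 54 in Control libraries. The log2 fold change was 3.34 (SE 0.15), which is 10.1-fold. In GENCODE 29 (GRCh38) DNER spans chr2:229357629-229714558 on the minus strand. In bulk RNA, more cells with the transcript and more transcript per cell cannot be told apart.

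DTX3 showed a difference of similar size at similar levels. It had 10.5, 9.82 and 11.4 CPM in miR-885-5p libraries 1 to 3, against 0.778, 1.57 and 1.44 CPM in Control libraries 1 to 3. The groups did not overlap, and Control library 1, with 37 counts, stood below the Control libraries with 74 and 71 counts. The log2 fold change was 3.06 (SE 0.22), which is 8.34-fold. DTX3 spans chr12:57604622-57609804 on the plus strand. No other annotated gene overlaps DTX3, while DNER overlaps a processed pseudogene and a small nuclear RNA gene on the opposite strand, neither in the table.

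DNER and DTX3 were chosen by this rise, so their place among all genes restates the choice: they stood 2nd and 4th by log2 fold change among 10697 named genes with a mean of at least 5 CPM, a mean they reached only through the miR-885-5p libraries. The genes next to them in that order were SPON2 at 3.46, MYADM at 3.34 and G0S2 at 2.94. Likeness was measured among the same 10697 named genes. It was the Euclidean distance between log2 CPM values centred on each gene's mean over the 6 libraries. The 3 genes most like DNER were MYADM (distance 0.391), SPON2 (0.452) and DTX3 (0.562). Those most like DTX3 were DNER, SPON2 (0.822) and MYADM (0.824). MYADM too reached the mean of 5 CPM only through the miR-885-5p libraries, with 11.9 CPM there against 1.17 CPM in Control. All these distances rest on the same 6 libraries, and DNER and DTX3 had been chosen for their difference between the groups.

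**Figure D1:**
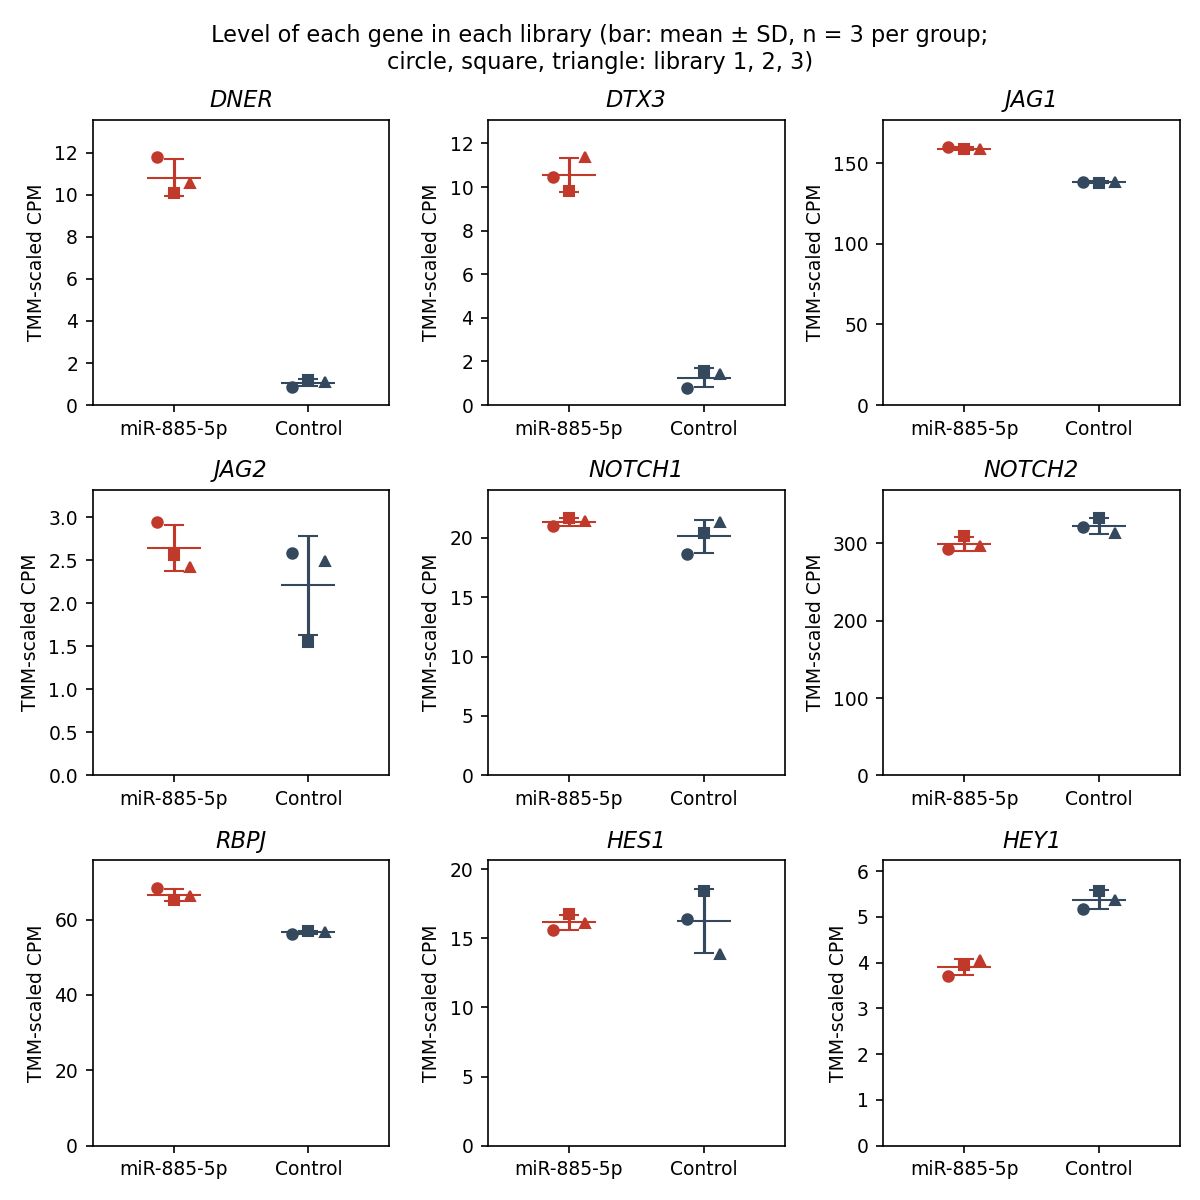
TMM-scaled CPM of the 9 genes in each library, miR-885-5p libraries left and Control libraries right, with the group mean and SD (n = 3 each); every vertical axis starts at 0. DNER and DTX3 stand near 10.8 and 10.6 CPM with miR-885-5p against 1.06 and 1.26 CPM in Control, while the other genes differ by much less.

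Among the remaining 7 genes, JAG1 and RBPJ rose, NOTCH2 and HEY1 fell, and NOTCH1, JAG2 and HES1 did not pass the test. That is 2 higher and 2 lower of 7, against the 26.3% and 26.5% over all genes, so the share called was near that of genes at large. The largest of the 4 called differences was a log2 fold change of -0.46, far smaller than those of DNER and DTX3.

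The ligand gene JAG1 was by count the second most abundant of the 9. It had 160, 159 and 158 CPM in miR-885-5p libraries 1 to 3, against 138, 137 and 138 CPM in Control libraries 1 to 3. Both groups were tight and did not overlap. JAG1 rose by 0.20 on the log2 scale (SE 0.03, adjusted p = 5.99e-04), or 1.15-fold, and kept its call under all 16 alternatives, with a log2 fold change from 0.20 to 0.26. The gene spans chr20:10637684-10673999 on the minus strand and overlaps the antisense gene AL050403.2, whose reads cannot be told apart from those of JAG1 if strand was not kept. JAG2, the other Jagged ligand gene, was weakly expressed. It had 2.95, 2.57 and 2.43 CPM in miR-885-5p libraries, against 2.58, 1.55 and 2.50 CPM in Control libraries. The groups overlapped, and the log2 fold change of 0.26 (SE 0.23) had an adjusted p of 0.365. Over 15 alternatives its log2 fold change ran from 0.06, without Control library 2, to 0.39, without Control library 1, and none gave a call. JAG2 spans chr14:105140981-105168824 on the minus strand and overlaps AL512356.1, a processed transcript on the same strand, so reads in the shared part are uncertain.

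The receptor genes differed little between the groups. NOTCH2 had 292, 310 and 297 CPM in miR-885-5p libraries 1 to 3, against 321, 333 and 313 CPM in Control libraries 1 to 3. The highest miR-885-5p library lay just under the lowest Control library. NOTCH2 fell by 0.11 on the log2 scale (SE 0.04, adjusted p = 0.0435), and this call was lost in 9 of 16 alternatives, where adjusted p ran from 0.0589 to 0.471. Without miR-885-5p library 1 or 3 it was 0.167 and 0.132, and without Control library 1 or 2 it was 0.102 and 0.116. NOTCH2 spans chr1:119911553-120069626 on the minus strand. Reads of NOTCH2 can be shared with NOTCH2NLA, a partial copy of the gene that encodes a short NOTCH2-like protein, so both values are uncertain. For NOTCH2NLA the difference was 0.22 on the log2 scale (SE 0.09, adjusted p = 0.0573), and it was called in 6 of 15 alternatives on counts. NOTCH1 had 21.0, 21.7 and 21.4 CPM in miR-885-5p libraries, against 18.6, 20.4 and 21.4 CPM in Control libraries. The top of the Control range reached into the miR-885-5p range, and the log2 fold change was 0.08 (SE 0.07, adjusted p = 0.327). NOTCH1 spans chr9:136494433-136545786 on the minus strand and overlaps the antisense gene AL592301.1, with the same limit as for JAG1.

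RBPJ, the DNA-binding partner of the Notch intracellular domain, rose. It had 68.3, 65.3 and 66.2 CPM in miR-885-5p libraries 1 to 3, against 56.2, 56.9 and 56.8 CPM in Control libraries 1 to 3. The groups were well apart for a change this small. The log2 fold change was 0.23 (SE 0.04, adjusted p = 0.00117), or 1.18-fold. With the authors' FPKM in place of counts the call was lost (adjusted p = 0.167, limma). On that scale RBPJ had 12.5, 11.5 and 11.2 FPKM in miR-885-5p libraries, against 12.1, 9.13 and 9.53 FPKM in Control libraries, so Control library 1 lay inside the miR-885-5p range. FPKM divided by CPM was 0.216 in Control library 1, against 0.160 and 0.168 in Control libraries 2 and 3. RBPJ spans chr4:26163455-26435131 on the plus strand.

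The target genes HES1 and HEY1, both transcriptional repressors, did not move together. HES1 had 15.6, 16.7 and 16.1 CPM in miR-885-5p libraries 1 to 3, against 16.4, 18.4 and 13.9 CPM in Control libraries 1 to 3. The miR-885-5p values lay inside the wider Control range, and the log2 fold change was -0.01 (SE 0.10, adjusted p = 0.956). HES1 spans chr3:194136145-194138732 on the plus strand. HEY1 had 3.71, 3.94 and 4.05 CPM in miR-885-5p libraries, against 5.17, 5.58 and 5.38 CPM in Control libraries. The groups did not overlap. HEY1 fell by 0.46 on the log2 scale (SE 0.13, adjusted p = 0.0126), and its call held under all 16 alternatives, with a log2 fold change from -0.49 to -0.37. Among these, the filter of 5 CPM in 3 libraries kept HEY1 only through the Control group, so that setting is no independent check of the fall.

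HES1 is the usual readout of RBPJ-dependent transcription, and its promoter is shown because it was the only one of 6 promoters found in the RefSeq table (HES1, JAG1, JAG2, NOTCH1, NOTCH2 and RBPJ) that held the RBPJ core TGGGAA. The window covers 250 bases before the annotated start (GRCh38.p14, chr3:194135898-194136147, plus strand), and the capitals mark the core, searched on both strands.
HES1: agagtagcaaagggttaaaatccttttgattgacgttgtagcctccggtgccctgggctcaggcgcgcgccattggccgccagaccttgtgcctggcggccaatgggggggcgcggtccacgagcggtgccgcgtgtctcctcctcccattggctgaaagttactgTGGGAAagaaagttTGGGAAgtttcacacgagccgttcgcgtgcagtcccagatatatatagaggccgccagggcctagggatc
The matches begin 84 and 70 bases before the start, both on the plus strand. Of 9882 promoters of tested genes 19.7% held at least 1 core and 2.42% held 2 or more. HES1, the gene with the match, had a log2 fold change close to 0, as given above.

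Levels of different genes were compared on the authors' FPKM, which is scaled by length. With miR-885-5p the order was JAG1 at 25.1 ± 0.357 FPKM, NOTCH2 at 24.8 ± 1.09, RBPJ at 11.7 ± 0.690, HES1 at 9.60 ± 0.455, DTX3 at 5.26 ± 0.360, DNER at 3.10 ± 0.229, NOTCH1 at 2.15 ± 0.0612, HEY1 at 1.60 ± 0.0918 and JAG2 at 0.425 ± 0.0429 FPKM (mean ± SD, n = 3). JAG1 and NOTCH2 lay within their spread of each other there. In Control the order was NOTCH2 at 25.6 ± 0.463 FPKM, JAG1 at 21.0 ± 0.344, RBPJ at 10.3 ± 1.62, HES1 at 9.25 ± 1.18, HEY1 at 2.10 ± 0.0722, NOTCH1 at 1.95 ± 0.145, DTX3 at 0.587 ± 0.329, JAG2 at 0.342 ± 0.0935 and DNER at 0.291 ± 0.0451 FPKM (n = 3). RBPJ and HES1 were within their spread in Control, as were HEY1 and NOTCH1, and DTX3, JAG2 and DNER. DNER and DTX3 thus stood with the weakest of the 9 genes in Control and above NOTCH1 with miR-885-5p.

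**Figure D2:**
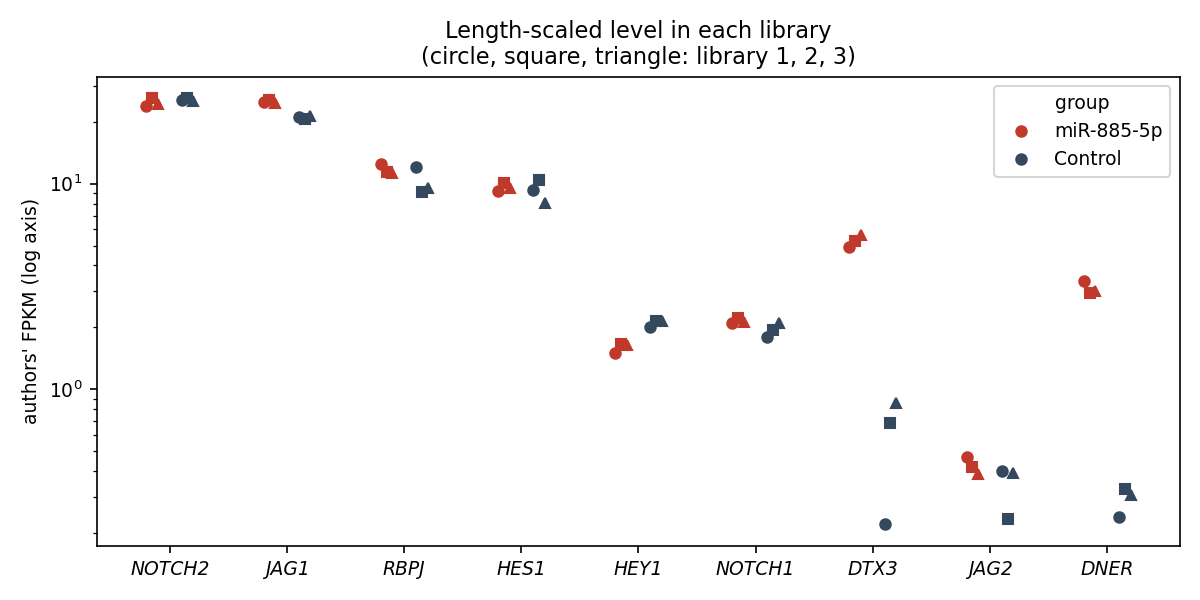
The authors' FPKM of the 9 genes in each library on a log axis, ordered by the Control mean, with miR-885-5p points left of Control points. NOTCH2 and JAG1 lie above 20 FPKM in both groups, and DTX3 and DNER lie above NOTCH1 with miR-885-5p and under 1 FPKM in Control.

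For DTX3, and to a lesser extent for RBPJ, the authors' FPKM and the counts did not keep a fixed ratio. For DTX3, FPKM divided by CPM was 0.469, 0.534 and 0.495 in miR-885-5p libraries 1 to 3, against 0.283, 0.436 and 0.594 in Control libraries 1 to 3. For RBPJ it was 0.183, 0.176 and 0.169 in miR-885-5p libraries, against 0.216, 0.160 and 0.168 in Control libraries. For DNER the same ratio ran only from 0.285 to 0.292 in miR-885-5p libraries and from 0.271 to 0.277 in Control libraries. The ratio of mean FPKM between the groups was 8.96 for DTX3 and 10.7 for DNER, near the folds from counts.

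The wider pathway was read from lists of 104 genes by role, of which 85 were in the table. Leaving out DNER and DTX3, 27 of 83 genes rose, 18 fell and 38 did not pass. Together 54.2% were called, near the 52.9% over all genes, and the median log2 fold change was 0.07, against 0.00 over all genes (-0.00061). The counts by role below come from short lists and stand beside 26.3% higher and 26.5% lower over all genes. Among these 83 genes, those that differed at least 2-fold were CNTN1, CNTN6, DTX4, FURIN and SNAI2 above Control and HEY2 below it. The share of all tested genes that differed as much was not counted.

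The largest differences among these 83 genes were in non-canonical ligand genes. CNTN1 and CNTN6 encode contactins, neuronal adhesion proteins that were reported to bind Notch in rodent cells. CNTN1 had 1.44, 1.96 and 1.62 CPM in miR-885-5p libraries 1 to 3, against 0.504, 0.148 and 0.162 CPM in Control libraries 1 to 3, and rose by 2.62 on the log2 scale (SE 0.41, adjusted p = 4.65e-04). CNTN6 had 2.57, 2.46 and 2.64 CPM in miR-885-5p libraries, against 0.735, 0.403 and 0.690 CPM in Control libraries, and rose by 2.06 (SE 0.25, adjusted p = 9.51e-05). Both genes were weak in absolute terms, with no overlap between the groups. NOV, also called CCN3, a secreted matricellular protein that can bind NOTCH1, fell by 0.24 (SE 0.06, adjusted p = 0.00839). DLK2, a Delta-like protein without Notch-activating function, and MFAP2, a microfibril protein, had log2 fold changes of -0.39 (adjusted p = 0.114) and -0.24 (adjusted p = 0.441). Of the 5 genes of this list counted, 2 rose and 1 fell. Among canonical ligands, DLL3, a Delta family member that acts inside the producing cell, fell by 0.37 (SE 0.13, adjusted p = 0.0361), a call lost in 6 of 15 alternatives on counts, among them without miR-885-5p library 1 or 3 and without Control library 2 or 3 (adjusted p up to 0.113).

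Several neuronal markers moved with DNER and the contactin genes. Of 10 listed neuron markers 5 were measured, and 4 of these rose: SNAP25 by 1.36, MAP2 by 0.76, TUBB3 by 0.59 and SYT1 by 0.51. The fifth, GAP43, had a log2 fold change of 0.14 (adjusted p = 0.579). Over all genes 26.3% were called higher, and each marker list in this paragraph is to be set beside that share. The summed level of the list was 93.7 to 100.4 CPM in miR-885-5p libraries and 62.1 to 66.9 CPM in Control libraries. RBFOX3, SYP, STMN2, ELAVL3 and ELAVL4 were not analysed here. Markers of endothelial cells (PECAM1 and TIE1, out of 3 measured) and of fibroblasts and stellate cells (PDGFRB and LUM, out of 3 measured) also rose, with summed levels of 6.19 to 7.03 and 28.0 to 28.9 CPM in miR-885-5p libraries, against 3.03 to 4.34 and 15.7 to 18.2 CPM in Control libraries. The only leukocyte marker in the table, CD68, had a log2 fold change of -0.03 (adjusted p = 0.649). Their part in the differences of DNER and the contactin genes was not tested.

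Besides DTX3, the Deltex genes DTX2, DTX3L and DTX4 were tested, and of these DTX4 rose. DTX4, a ubiquitin ligase with Notch-binding WWE domains, had 1.08, 1.18 and 1.05 CPM in miR-885-5p libraries, against 0.441, 0.361 and 0.284 CPM in Control libraries. It rose by 1.61 on the log2 scale (SE 0.26, adjusted p = 6.58e-04). DTX2 had 41.1 ± 1.82 CPM with miR-885-5p and 36.7 ± 3.18 CPM in Control (SD, n = 3 each; log2 fold change 0.17, adjusted p = 0.0732). DTX3L, which works with PARP9 in DNA repair and antiviral defence, had a log2 fold change of 0.00 (9.56e-04, SE 0.04). PARP9, an ADP-ribosyltransferase family protein and not a Deltex protein, was listed with them as the partner of DTX3L and fell by 0.58 (SE 0.09, adjusted p = 5.37e-04).

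Of 9 genes for receptor glycosylation and maturation 4 rose and 1 fell. FURIN, the convertase that makes the first cut in the receptor on its way to the surface, had 62.2, 63.2 and 65.0 CPM in miR-885-5p libraries, against 24.9, 22.9 and 22.2 CPM in Control libraries. It rose by 1.44 on the log2 scale (SE 0.06, adjusted p = 1.12e-07), and it is a protease of many other proproteins. RFNG, a Fringe enzyme that extends fucose on the EGF repeats, rose by 0.42, and XXYLT1, which extends xylose on them, rose by 0.46. GXYLT1, which adds the first xylose, fell by 0.66. Of 8 receptor cleavage genes 6 rose and none fell, against 26.3% higher and 26.5% lower over all genes. The gamma-secretase subunit genes APH1B, NCSTN and APH1A rose by 0.73, 0.34 and 0.30, and the protease gene ADAM10 by 0.24, while ADAM17, the other ADAM protease gene listed, had a log2 fold change of 0.02 (adjusted p = 0.754). PSEN2 and PSENEN, at 0.21 and 0.16, lost their calls in 4 and 5 of 15 alternatives on counts (adjusted p up to 0.0821 and 0.126). For PSEN2 these left out miR-885-5p library 1 or 2 or Control library 1 or 2, and for PSENEN they used the replicate block or left out miR-885-5p library 2 or 3 or Control library 1 or 2.

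**Figure D3:**
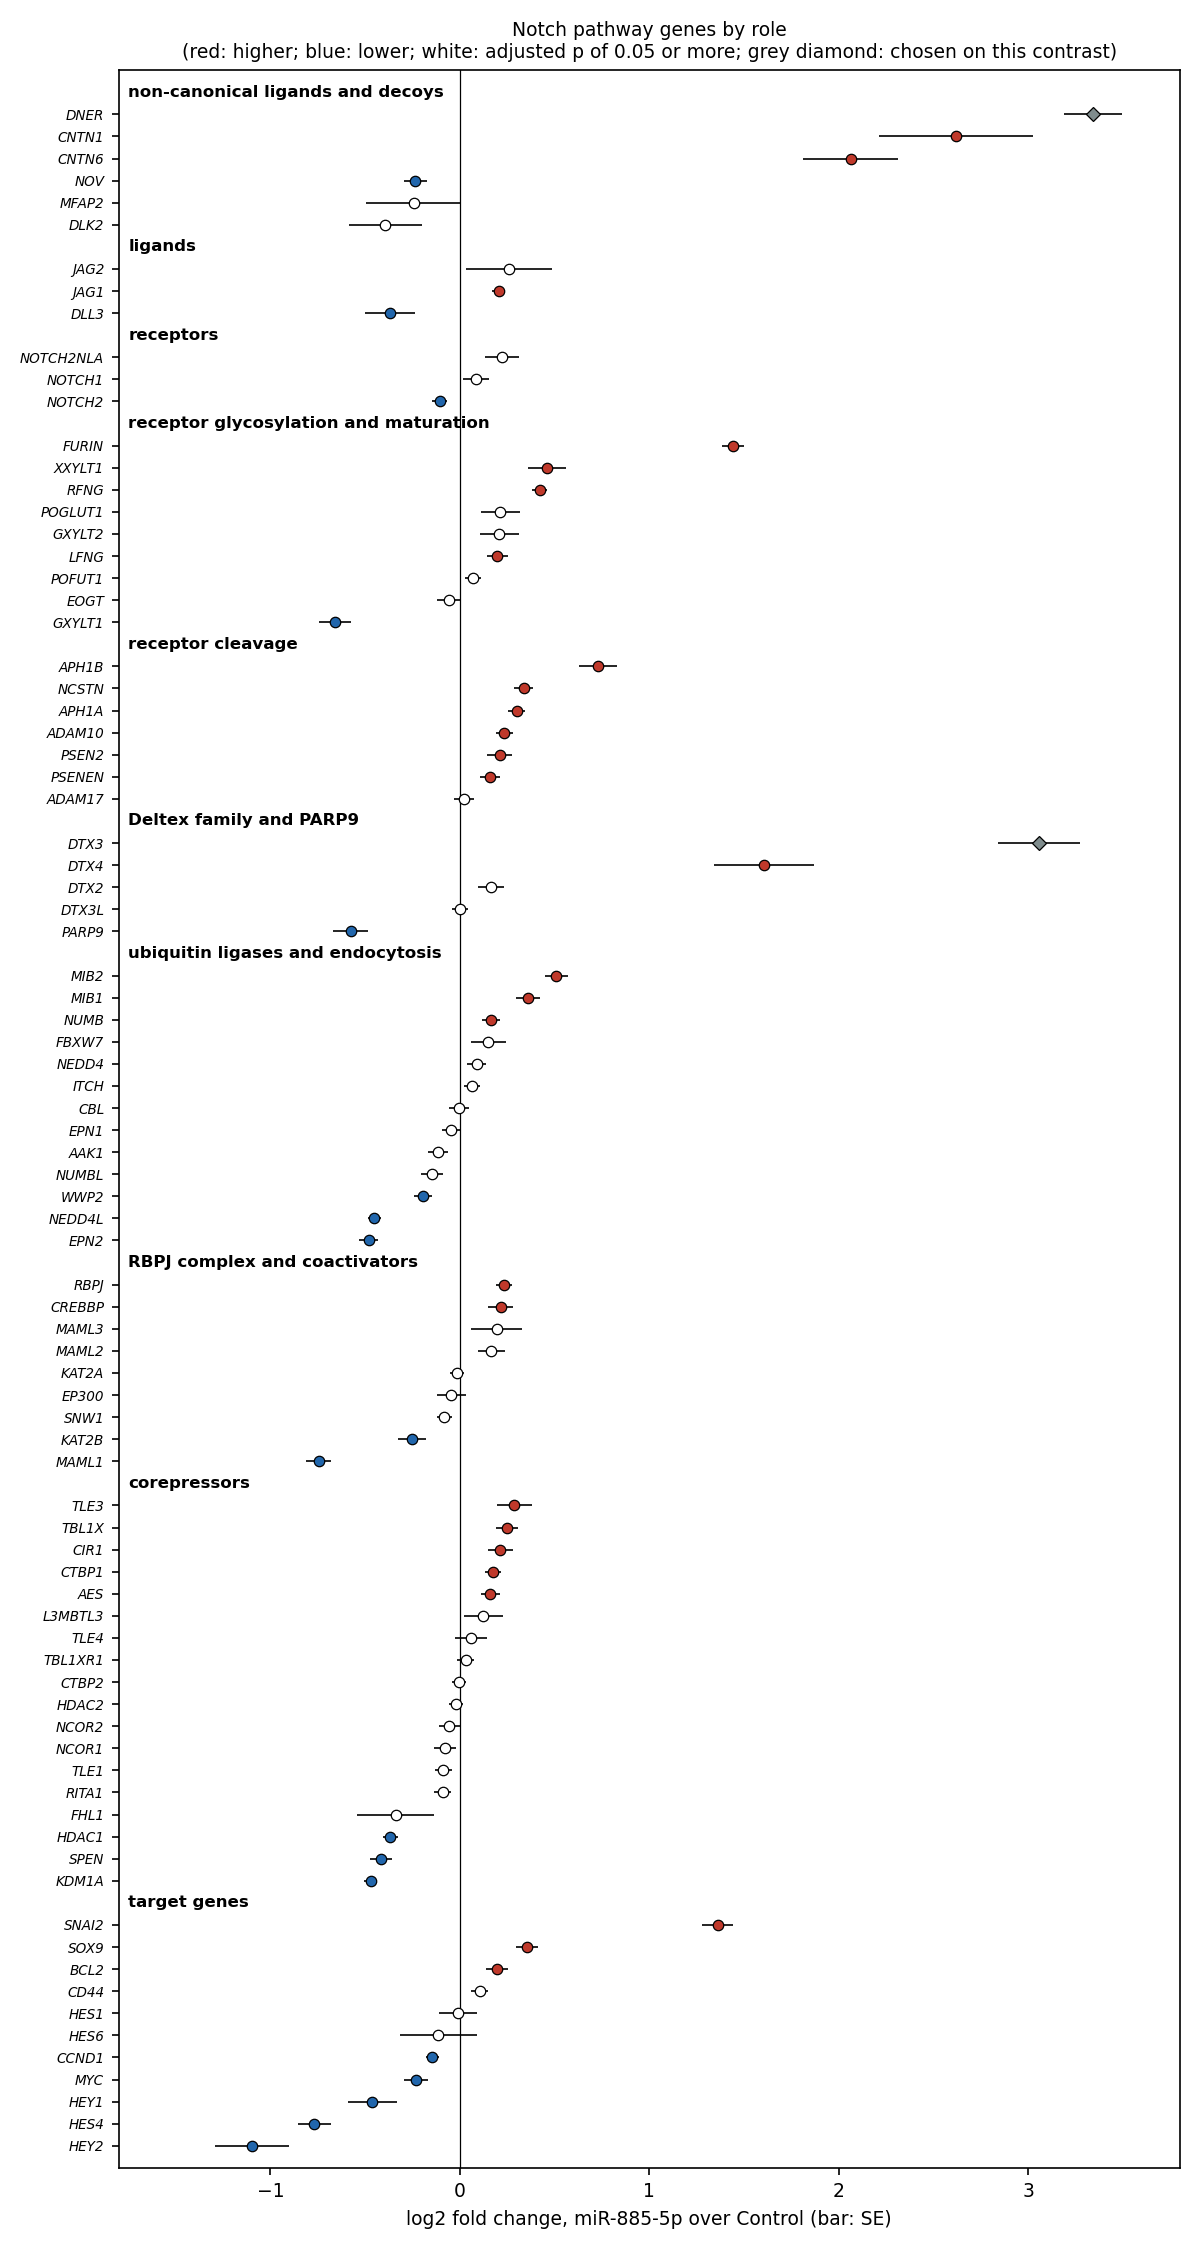
Log2 fold change (miR-885-5p over Control) with SE of the pathway genes, 1 left out, grouped by role; red and blue mark genes past the test above and below Control, white those not past it, and grey diamonds DNER and DTX3, which were chosen on this contrast. Most genes lie within 0.5 of 0, and CNTN1, CNTN6, DTX4, FURIN and SNAI2 lie beyond 1 on the higher side.

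Genes of ubiquitin transfer and endocytosis were split, with 3 of 13 higher and 3 lower. MIB2 and MIB1, the ligases that mark ligands for internalisation, rose by 0.51 and 0.36. EPN2, an epsin of the endocytic coat, fell by 0.48 and NEDD4L, a HECT-type ligase, by 0.45. In the nuclear complex 2 of 9 genes rose and 2 fell. MAML1, a Mastermind coactivator, had 24.1, 28.2 and 24.9 CPM in miR-885-5p libraries, against 42.7, 42.9 and 43.9 CPM in Control libraries. It fell by 0.75 (SE 0.07, adjusted p = 1.20e-05). MAML2 and MAML3 had log2 fold changes of 0.17 (adjusted p = 0.0800) and 0.19 (adjusted p = 0.259). The acetyltransferase genes CREBBP and KAT2B had 0.22 and -0.25, and each lost its call in 2 of 15 alternatives on counts. These were without miR-885-5p library 2 or 3 for CREBBP (adjusted p up to 0.0582) and without miR-885-5p library 1 or Control library 2 for KAT2B (up to 0.0668).

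Of 18 corepressor genes 5 rose and 3 fell. The 3 that fell were KDM1A, a histone demethylase, by 0.47, SPEN, a scaffold that binds RBPJ, by 0.42 and HDAC1, a histone deacetylase, by 0.37. TBL1X, a subunit of NCOR complexes, rose by 0.25. Of the 5 that rose, AES, CIR1 and TLE3 lost their calls when 1 library was left out, in 3, 2 and 3 of 15 alternatives on counts (adjusted p up to 0.0803, 0.0793 and 0.0948). These libraries were miR-885-5p 2 or 3 or Control 1 for AES, miR-885-5p 1 or Control 3 for CIR1, and miR-885-5p 1 or 2 or Control 3 for TLE3. KDM1A, SPEN and HDAC1 lie, with HES4, MIB2, MFAP2 and NOTCH2, on chromosome 1 before its widest gap between tested genes, which spans starts from 121184810 to 143955364. In that stretch 387 of 694 genes (55.8%) were lower and 11% higher, with a median log2 fold change of -0.23, against 0.01 for genes elsewhere. Of the 7 pathway genes there 5 fell and 1 rose, and of the 76 elsewhere 13 fell and 26 rose. The part of this stretch in the values of those 7 genes was not tested.

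Of the 11 target genes measured 3 rose and 5 fell. Of 9 listed HES and HEY genes 5 were measured, and of these 3 fell and none rose, against 26.5% lower over all genes. Among those that fell, HES4 lies in the chromosome 1 stretch given above, where 55.8% of genes were lower. HEY2 had 1.89, 1.91 and 1.87 CPM in miR-885-5p libraries, against 4.24, 4.77 and 3.13 CPM in Control libraries, and fell by 1.10 (SE 0.19, adjusted p = 0.00104). HES4 had 11.4, 13.1 and 10.6 CPM in miR-885-5p libraries, against 20.1, 19.9 and 19.8 CPM in Control libraries, and fell by 0.77 (SE 0.09, adjusted p = 5.81e-05). HES6, which counters HES1, had a log2 fold change of -0.11 (adjusted p = 0.661). Targets outside these families, which respond to many other signals, went both ways: SNAI2, a repressor of epithelial genes, and SOX9, a bile duct lineage factor, rose by 1.36 and 0.35, while MYC and CCND1, drivers of cell growth and of G1 entry, fell by 0.23 and 0.15.

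The seed sites shown above were set beside these values. HEY2, with its 7mer-m8, was lower as given above, L3MBTL3, a corepressor gene with the same site type, had a log2 fold change of 0.12 (adjusted p = 0.336), and HDAC2, with its 8mer, had -0.02 (adjusted p = 0.661). Of 18 pathway genes with a 7mer or 8mer site 6 rose and 5 fell. Of all 2121 tested genes with such a site 26.7% rose and 30.0% fell. Of the 10183 tested genes with a 3′ UTR and no such site 27.8% rose and 27.4% fell. DTX4 and FURIN, both higher, each held the 7mer-A1 type.

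**Figure D4:**
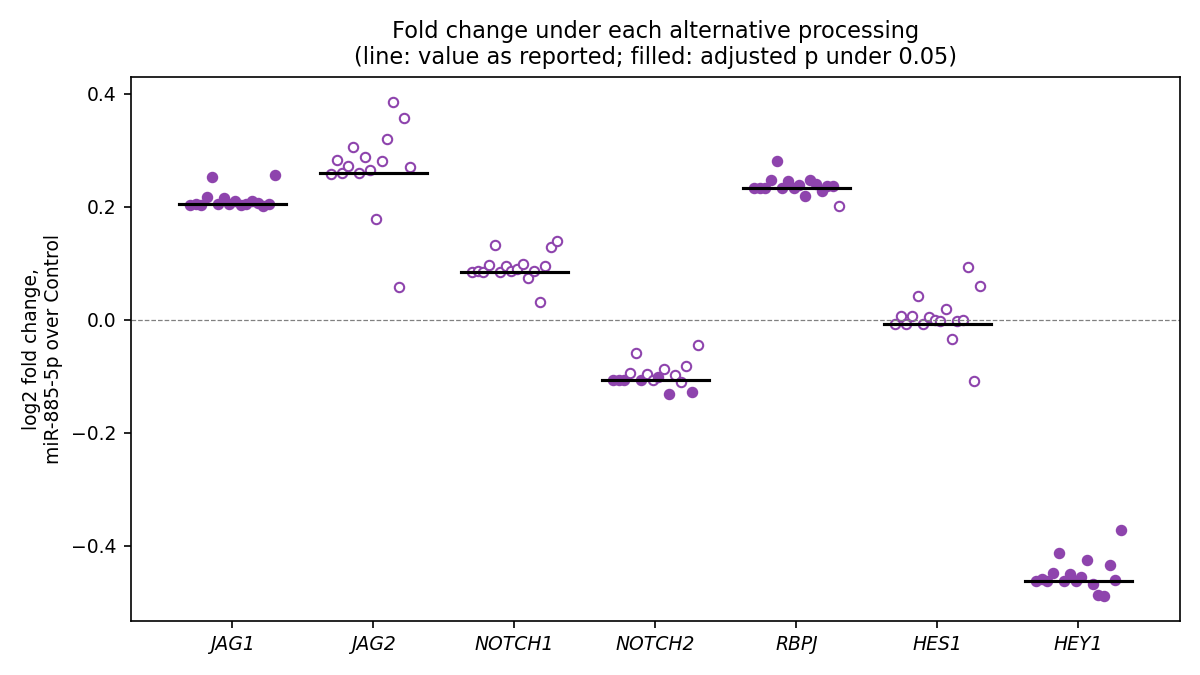
Log2 fold change (miR-885-5p over Control) of the 7 genes chosen by name under each alternative processing; the black line is the value as reported, and filled points had an adjusted p under 0.05. JAG1 and HEY1 keep filled points throughout, NOTCH2 has 9 open points of 16 and RBPJ 1, and HES1 lies on both sides of 0 with open points only.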

How the data were processed

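RNA was isolated on RNeasy columns and made into NEBNext Ultra libraries, per the labels' protocols. Not given in the sources used here are the counting tool, its annotation release and its use of strand. Tools listed in the submitters' processing notes, without their roles, are DESeq2 1.38.3, HISAT2 2.0.4 and StringTie 2.2.1, with the build GRCh38. The authors' table has, per the file headers, a raw count and an FPKM value per gene and library, and the authors' p-value and log2 fold change per gene, with no test named. The authors' p-value and log2 values were used in no result.

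Groups and replicate numbers come from the sample titles. The test on the counts was the quasi-likelihood F test of edgeR 4.0.16 (R 4.3.3) after TMM scaling, with p adjusted by Benjamini-Hochberg over the whole table and called under 0.05; filterByExpr removed 0 of 14034 genes; the SE is the log2 fold change divided by the root of F. Of the rows, 1614 are new gene models with no name. Counting error is covered by the spread between the 3 libraries per group. The edgeR fit was tested on simulated counts with few changed genes, balanced in direction, and with dispersions taken from these libraries. That simulation does not cover data with as many called genes as here, or spread beyond these libraries. The members and lists were chosen with earlier results of these data known. Named genes are the members, then per list the 4 with the smallest adjusted p, those with an absolute log2 fold change of at least 0.5, the 3 most like DNER and DTX3, and members with a seed site; further genes were chosen after their values were seen. Symbols missing from the table were not analysed here, and 1 measured pathway gene is counted but not reported by name. Equal replicate numbers did not deviate together and were not treated as pairs.

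Alternatives were DESeq2 1.42.0, limma-voom (limma 3.58.1), 3 scalings, no filter, a filter of 5 CPM in 3 libraries, the replicate number as a block, genes with an Ensembl ID alone, leaving out each library, and limma on log2(FPKM + 0.1), a scale on which the pseudocount pulls the folds of weak genes towards 0.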

Additional observations from a re-analysis of the deposited data

How the results depend on the processing

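The number of genes called stayed within 1.5 times its reported value under all 15 alternatives on counts: 6286 to 7678 over all genes (7423 reported), 21 to 34 pathway genes higher (27 reported) and 15 to 22 lower (18 reported). The highest count of higher pathway genes, 34, came with total-count scaling. Of the 45 pathway calls, 38 to 45 were kept in the same direction. DNER kept a log2 fold change from 3.04 to 3.44 and DTX3 from 2.81 to 3.24, the lower value for DNER with FPKM. DNER and DTX3 passed the filter of 5 CPM in 3 libraries only through the miR-885-5p group, and HEY1 only through the Control group. JAG2 did not pass it, nor did CNTN1, CNTN6, DTX4 and HEY2, which differed at least 2-fold. NOTCH2 lost its call under upper-quartile scaling, with total counts alone as the scaling (-0.06), with the 5 CPM filter and with the replicate block. It also lost its call with FPKM (-0.05) and without miR-885-5p library 1 or 3 or Control library 1 or 2. Over the genes of each setting, the median shift in log2 fold change was 0.013 with upper-quartile scaling and 0.048 with total counts. That shift was 0.012 with the 5 CPM filter and 0.058 with FPKM. The cause of the lost calls was not tested. With the replicate number as a block 6695 genes were called, 27 pathway genes higher and 16 lower. Deviations of equally numbered libraries correlated at -0.12, -0.08 and -0.17, and 0 of 6 libraries correlated best with their own number. The values thus showed no pairing by number, which so few libraries cannot exclude. Among pathway calls not named above, LFNG lost its call in 2 alternatives and NUMB and BCL2 in 1 each. JAG2 had 73 to 148 counts per library.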

Other observations

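The tested genes next to DNER and DTX3 on their chromosomes, chosen after the fold changes had been seen, did not share one pattern. Beside DNER, PID1, which encodes a phosphotyrosine-interaction domain protein of insulin signalling, had 15.9 CPM with miR-885-5p and 5.37 CPM in Control and rose by 1.57 on the log2 scale (SE 0.09, adjusted p = 7.64e-07, edgeR). TRIP12, a ubiquitin ligase gene on the other side of DNER, had a log2 fold change of -0.01 (adjusted p = 0.908), and SLC16A14, a transporter gene 3 tested genes away, fell by 1.24 (SE 0.07, adjusted p = 7.42e-07). The 6 tested genes nearest to DTX3 had log2 fold changes from -0.23 to 0.22, among them PIP4K2C at 0.16 and B4GALNT1 at -0.17 on either side of it.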
